A study of Mus musculus with 6 samples.

Results

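Plasma membrane transporters of citrate and other dicarboxylates, of sulfate and of lactate were described in RNA of *Pkd1*-mutant mouse kidneys. The genes are *Slc13a1*, *Slc13a2*, *Slc13a3*, *Slc26a1*, *Slc5a8*, *Slc5a12*, *Slc16a3*, *Slc16a4* and *Slc16a7*. They were picked by name for what they carry, and all 9 were found among the 23276 gene symbols of the table, on 41 of its 54721 transcript rows. Total kidney RNA came from 6 mice at postnatal day 22. All 6 carried the KspCre transgene with the genotype Pkd1 F/RC, which joins a floxed *Pkd1* allele to the hypomorphic RC allele. KspCre is a Cre recombinase expressed in renal tubules, so whole-kidney RNA also holds cells in which it is not expressed. Of the mice, 3 (SKO) had this genotype alone, and the remaining 3 (DKO) were also homozygous for a floxed miR17∼92 cluster (miR17∼92 F/F). No wild-type kidney was analysed here. The only values used are the authors' means over all 6 kidneys, in CPM (read counts scaled to the total of the library), and they give neither the difference between SKO and DKO nor the spread between mice. Every level below is therefore 1 number without an error or a test, and the depth of each library is unknown. The removal of the cluster could not be checked from such a mean. Its host transcript *Mir17hg* stood at 4.21 CPM, *Pkd1* at 31.8 CPM and *Ppara* at 45.6 CPM over both groups.

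The cells of the proximal tubule recover citrate, sulfate and lactate from the filtered fluid. The SLC13 carriers bring in sulfate or dicarboxylates together with sodium, and the SLC5 carriers *Slc5a8* and *Slc5a12* do the same for lactate and other monocarboxylates. SLC26 proteins exchange one anion for another, and SLC16 proteins (the monocarboxylate transporters, MCTs) are not coupled to sodium. Recovered citrate and lactate are fuels for the oxidative metabolism of this segment and substrates for its glucose production, and citrate that stays in urine keeps calcium in solution.

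The design question was what loss of miR-17∼92 does to such genes, so the seeds of the cluster's miRNAs and their matches in the transporters are shown first. A seed is bases 2 to 8 of a mature miRNA, which pair with the 3′-UTR of a target. The 6 mature sequences below are from RefSeq (GRCm38.p6, chromosome 14, plus strand, between 115043684 and 115044496), with the seed in capitals. They fall into 4 seed families, since miR-17 shares its seed with miR-20a, and miR-19a with miR-19b.
miR-17-5p: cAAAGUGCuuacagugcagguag
miR-20a-5p: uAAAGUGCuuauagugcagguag
miR-18a-5p: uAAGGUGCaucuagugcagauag
miR-19a-3p: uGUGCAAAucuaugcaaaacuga
miR-19b-3p: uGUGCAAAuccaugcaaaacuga
miR-92a-3p: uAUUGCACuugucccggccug

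None of the 9 transporters held the 7-base match to bases 2 to 8 of miR-17 (GCACTTT, searched on the sense strand) in the 3′-UTR of its RefSeq transcript. The same was true of the 7-base matches to miR-19 (TTTGCAC) and miR-92 (GTGCAAT). Over all 18842 genes with a RefSeq mRNA row and an annotated 3′-UTR, 11.05% held the miR-17 match, 10.05% the miR-19 match and 5.99% the miR-92 match. Over the 12381 of them at 1 CPM or more, as all 9 transporters were, the shares were 13.74%, 12.06% and 7.06%. The match to the miR-18 seed (GCACCTT) was found once each in *Slc13a3* and *Slc5a12*. It was present in 7.22% of all 18842 genes and in 8.62% of those at 1 CPM or more. Both sites are shown with their surroundings, in GRCm38 coordinates and on the sense strand of the transcript, with the match in capitals. That of *Slc13a3* covers bases 175 to 181 of a 3′-UTR of 1652 bases (chr2:165406488-165406516, minus strand), and that of *Slc5a12* bases 461 to 467 of 1363 (chr2:110646866-110646894, plus strand).
Slc13a3, miR-18 match: cactgtctgcaGCACCTTctctttctttc
Slc5a12, miR-18 match: aatgggaatctGCACCTTcaatgctgctc

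A shorter match, to bases 2 to 7 of miR-17 (CACTTT), was found 7 times in 3 of the 9 genes. It occurred 3 times in *Slc5a12*, 2 times in *Slc5a8* and 2 times in *Slc26a1*. Of all 18842 genes 33.46% held this match, and of those at 1 CPM or more 38.83%. Thus 3 of 9 is close to the share in genes at large. The 6 bases were followed by an A (CACTTTA), the other common form of a 7-base match, 2 times in *Slc5a12* and once in *Slc5a8*, thus in 2 of the 9 genes against 10.38% of all genes. The 6-base match to miR-19 was found in 1 of the 9, 2 times in *Slc5a12*, against 21.42% of all genes, and that to miR-18 in 3 of the 9 against 28.74%. Of the 2 miR-19 matches in *Slc5a12*, 1 was followed by an A, a form that 10.08% of all genes held. The 3 sites of *Slc5a12* lie within 1 stretch of its 3′-UTR, at bases 583 to 588, 661 to 666 and 743 to 748, and are printed because this gene has the highest level of the group. They are at chr2:110646988-110647015, chr2:110647066-110647093 and chr2:110647148-110647175 on the plus strand.
Slc5a12, first miR-17 match: cacagctagaaCACTTTacttctctgag
Slc5a12, next miR-17 match: tattatgaccaCACTTTaagggcaattg
Slc5a12, last miR-17 match: aatatactattCACTTTgtgttgttaaa

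The lengths of the 3′-UTRs limit what such a search can find. They ranged from 527 bases for *Slc16a7* and 528 for *Slc16a4* to 3180 for *Slc5a8*, and summed to 10515 bases. The median was 786 over all genes searched and 1029 over those at 1 CPM or more. The longest annotated 3′-UTR of *Slc16a7* is 8742 bases long and holds 1 match to the miR-92 seed, and that of *Slc16a3*, of 2736 bases, holds 1 to the miR-18 seed. A match is a description of letters and was not tested as a binding site.

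**Figure D1:**
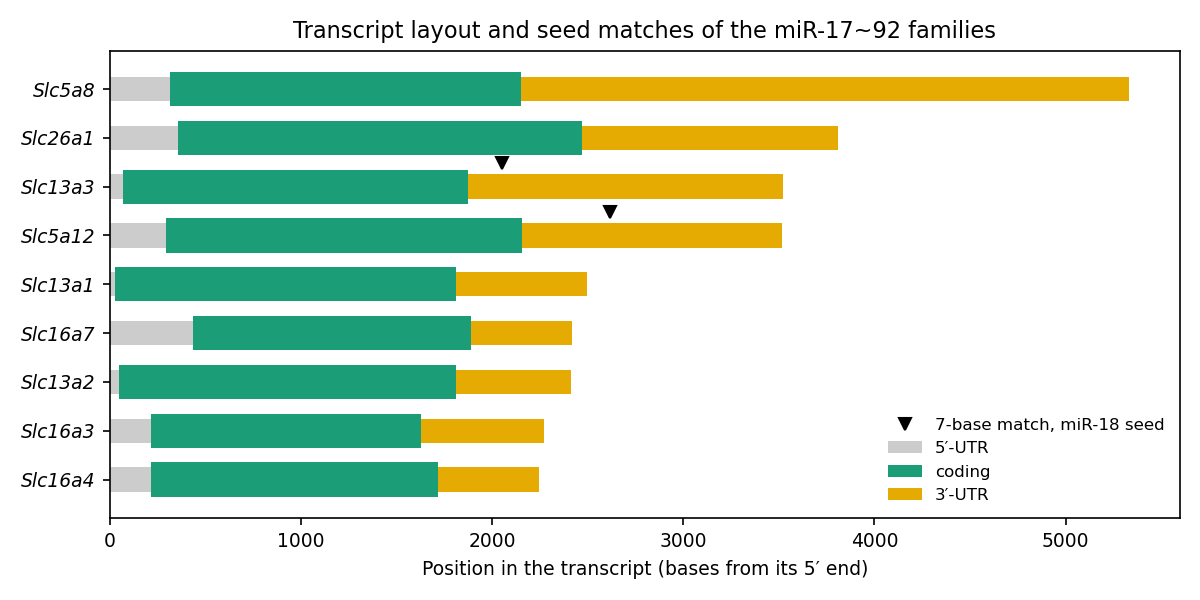
Layout of the RefSeq transcript of each transporter in the GENCODE annotation, with the position in bases from the 5′ end on the horizontal axis, the coding part and both UTRs as bars, and 7-base seed matches as triangles. The only 2 matches to bases 2 to 8 of the 4 seed families are those to miR-18 in *Slc13a3* and *Slc5a12*, and *Slc5a8* has the longest 3′-UTR, of 3180 bases.

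All 9 transporters had a mean of at least 1 CPM, against 55.86% of the 23276 genes, when each gene was taken by its highest transcript row. *Slc5a12* had a mean of 277.8 CPM (8.12 on the log2 scale), *Slc13a3* 125.6 CPM, *Slc16a7* 108.4 CPM and *Slc5a8* 93.2 CPM. *Slc13a1* had 78.0 CPM, *Slc16a4* 49.9 CPM, *Slc26a1* 37.9 CPM and *Slc13a2* 21.5 CPM. Of the genes, 8 thus lay between percentiles 81.5 and 99.55 of all genes by CPM, a scale that is not corrected for length. *Slc16a3*, at 1.79 CPM, was the exception and lay at percentile 47.8. In RNA of a whole organ, fewer cells of a type and less RNA per cell cannot be told apart.

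**Figure D2:**
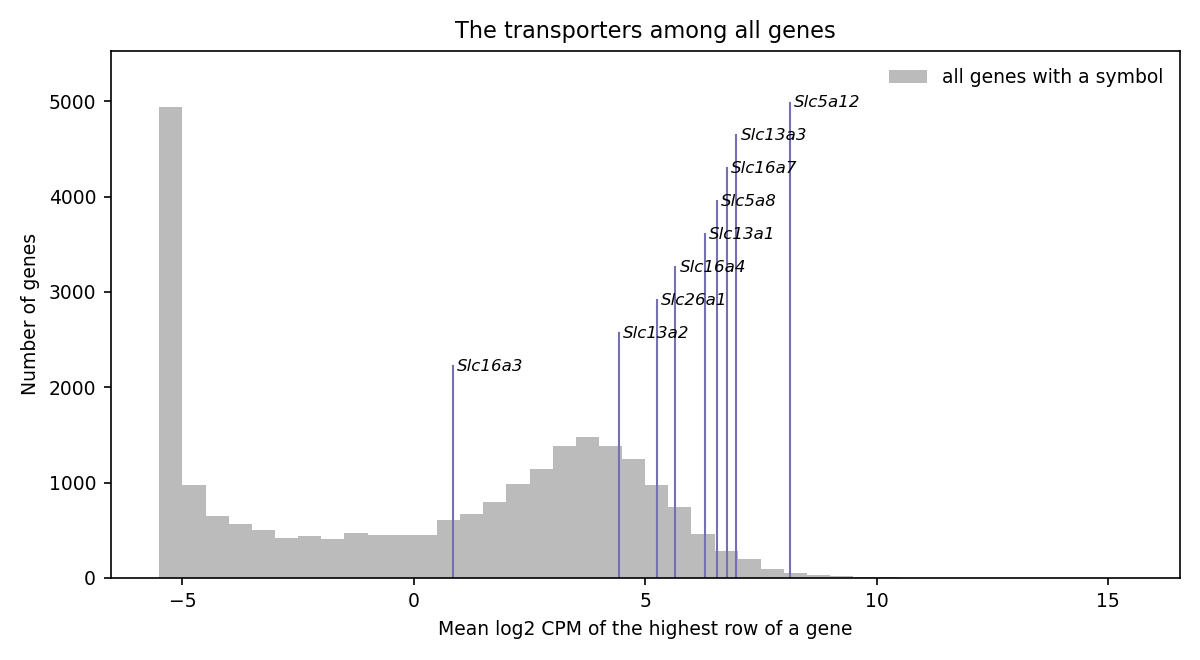
Number of genes (vertical axis) by mean log2 CPM of their highest transcript row (horizontal axis) for all genes with a symbol, with the 9 transporters as labelled lines whose height has no meaning. In all, 8 of the lines stand in the upper part of the distribution, from 4.42 for *Slc13a2* to 8.12 for *Slc5a12*, and that of *Slc16a3* at 0.84.

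CPM grows with the length of a transcript, so genes were also compared with each other as CPM per kilobase of the RefSeq transcript. On this scale the order was *Slc5a12* (79.0), *Slc13a3* (35.6), *Slc13a1* (29.99), *Slc16a4* (22.2), *Slc16a7* (17.8), *Slc5a8* (17.5), *Slc13a2* (8.89), *Slc26a1* (7.86) and *Slc16a3* (0.79). The median over the 20073 genes with such a value was 1.42 CPM per kilobase, and 8 of the 9 transporters were above it. With the longest annotated transcript as the divisor, 4 of the 9 genes took another place, and *Slc16a7* went from place 5 to place 8. Without values for single mice it cannot be said which neighbours in this order differ beyond their spread. The ratios of neighbours were smallest between *Slc16a7* and *Slc5a8* (1.02) and between *Slc13a2* and *Slc26a1* (1.13), and largest between *Slc26a1* and *Slc16a3* (9.98).

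Of the sodium-coupled lactate carriers, *Slc5a12* led the 9 genes and *Slc5a8* came 6th per kilobase. *Slc5a12* (SMCT2, the carrier of lower affinity) lies on chromosome 2 of mm10, from 110597298 to 110647779 on the plus strand, and its transcript has 15 exons. At 79.0 CPM per kilobase it lay at percentile 98.51 of all genes on this scale. *Slc5a8* (SMCT1, the carrier of higher affinity, which also takes up short-chain fatty acids and nicotinate) lies on chromosome 10, from 88885992 to 88929515 on the plus strand. Its level per kilobase was 17.5, so *Slc5a12* was 4.52-fold higher. In CPM the ratio was 2.98, because the *Slc5a8* transcript is 5331 bases long and that of *Slc5a12* 3518. The coding sequences of this pair were identical at 66.16% of aligned bases, where *Slc13a1* and *Slc26a1*, of different families, reached 61.52%. No stretch of 51 bases, the length of a read, was shared by either with a transcript of any other gene.

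Within the SLC5 family, *Slc5a12* was also above *Slc5a2* (SGLT2, the main glucose carrier of the early proximal tubule), at 47.5 CPM per kilobase. *Slc5a8* was 3rd of 13 genes per kilobase, and *Slc5a10* (14.9) and *Slc5a3* (14.7), carriers of sugars and of inositol, came next. In CPM *Slc5a3* (160.4) and *Slc5a2* (108.3) were both above *Slc5a8* (93.2). Of the 11 other SLC5 genes 7 had at least 1 CPM. The lowest of the family per kilobase was *Slc5a7*, the choline carrier of nerve endings, at 0.00537. Its 0.0278 CPM was near the lowest value of any row, 0.0263 CPM, so its place among the lowest genes is unsure.

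The 3 SLC13 genes held the top places of their family of 5. *Slc13a3* (NaDC3, the basolateral dicarboxylate carrier, which takes up succinate and 2-oxoglutarate) lies on chromosome 2, from 165405028 to 165473230 on the minus strand. It had 35.6 CPM per kilobase. *Slc13a2* (NaDC1, the apical carrier of citrate and other dicarboxylates) lies on chromosome 11, from 78397087 to 78422217 on the minus strand, and had 8.89 CPM per kilobase. The basolateral carrier was therefore 4.01-fold above the apical one. *Slc13a1* (NaS1, the apical sulfate carrier) lies on chromosome 6, from 24088283 to 24168092 on the minus strand, and had 29.99 CPM per kilobase. The coding sequences of the 3 genes were identical to each other at 61.93% to 65.01% of aligned bases. The only pair of different families aligned, *Slc13a1* and *Slc26a1*, had 61.52%, and pairs within the SLC16 family had 57.46% to 59.88%. This measure thus did not separate pairs within a family from that pair. The remaining members of the family were both under 1 CPM. *Slc13a4* had 0.22 CPM per kilobase, 40.1-fold below *Slc13a2*, and *Slc13a5* (the citrate carrier of liver and brain) had 0.00962. At 0.0320 CPM, *Slc13a5* was near the lowest value of any row, 0.0263 CPM.

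Sulfate crosses the proximal tubule cell by an apical and a basolateral carrier. The basolateral one is *Slc26a1* (Sat1, which exchanges sulfate for oxalate or bicarbonate), on chromosome 5 from 108669878 to 108675569 on the minus strand. At 7.86 CPM per kilobase it was 3.82-fold below *Slc13a1*. It was nevertheless the highest of 10 SLC26 genes, followed by *Slc26a4* (pendrin of the collecting duct) at 5.77 CPM per kilobase. Of the 9 other listed SLC26 genes 6 had at least 1 CPM, *Slc26a9* being the lowest per kilobase at 0.00796. In CPM *Slc26a9* (0.0377) and *Slc26a5* (0.0277) were both near the lowest value of any row, 0.0263 CPM. *Slc26a1* lies wholly inside the span of *Idua*, a lysosomal enzyme gene on the opposite strand with 4.66 CPM. Of the 51-base stretches of its transcript, 2.47% also occur in *Idua* transcripts when both strands are searched, so that a reverse complement counts as a match. *Slc13a2* has an antisense partner as well, *Slc13a2os*, which shares 18.5% of the 51-base stretches of *Slc13a2* in the same search of both strands. The libraries kept strand, but the strand setting of the count was not given in the sources used here, and the part of these partners in the levels was not tested.

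Among the MCTs, *Slc16a3* was set apart by its low level. *Slc16a3* (MCT4, the lactate exporter of glycolytic cells, a known target of hypoxia signalling) lies on chromosome 11, from 120948480 to 120960868 on the plus strand, and had 0.79 CPM per kilobase. *Slc16a7* (MCT2, a carrier of high affinity for lactate and pyruvate) was 22.6-fold above it and *Slc16a4* (MCT5, whose substrates are poorly known) 28.2-fold. *Slc16a7* lies on chromosome 10, from 125219270 to 125389465 on the minus strand, and *Slc16a4* on chromosome 3, from 107291230 to 107312115 on the plus strand. These 2 were the highest per kilobase of 13 SLC16 genes analysed here, although in CPM *Slc16a12* (62.0) was above *Slc16a4* (49.9). With the longest annotated transcript as the divisor *Slc16a7* fell from 17.8 to 3.92 CPM per kilobase. On that divisor *Slc16a3* itself had 0.41, so that *Slc16a7* was 9.50-fold, *Slc16a4* 47.8-fold and *Slc5a12* 190.8-fold above it. The 9.50-fold rests on the RefSeq row of *Slc16a7* divided by the length of another transcript. With its highest row over that length, chosen after seeing the data, *Slc16a7* was 23.9-fold above *Slc16a3*. Of the 10 other SLC16 genes 9 had at least 1 CPM, and *Slc16a3* came 12th, above only *Slc16a8* (0.0315), the lactate carrier of the retinal pigment epithelium. *Slc16a1* (MCT1, the widespread lactate carrier) had 2.60 CPM per kilobase, 3.31-fold above *Slc16a3*. *Slc16a12* (13.9 with its RefSeq transcript), a carrier of creatine, came below the 17.8 of *Slc16a7* but above its 3.92 with the longest transcript. The sodium-coupled *Slc5a12* was 100.3-fold above *Slc16a3*.

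**Figure D3:**
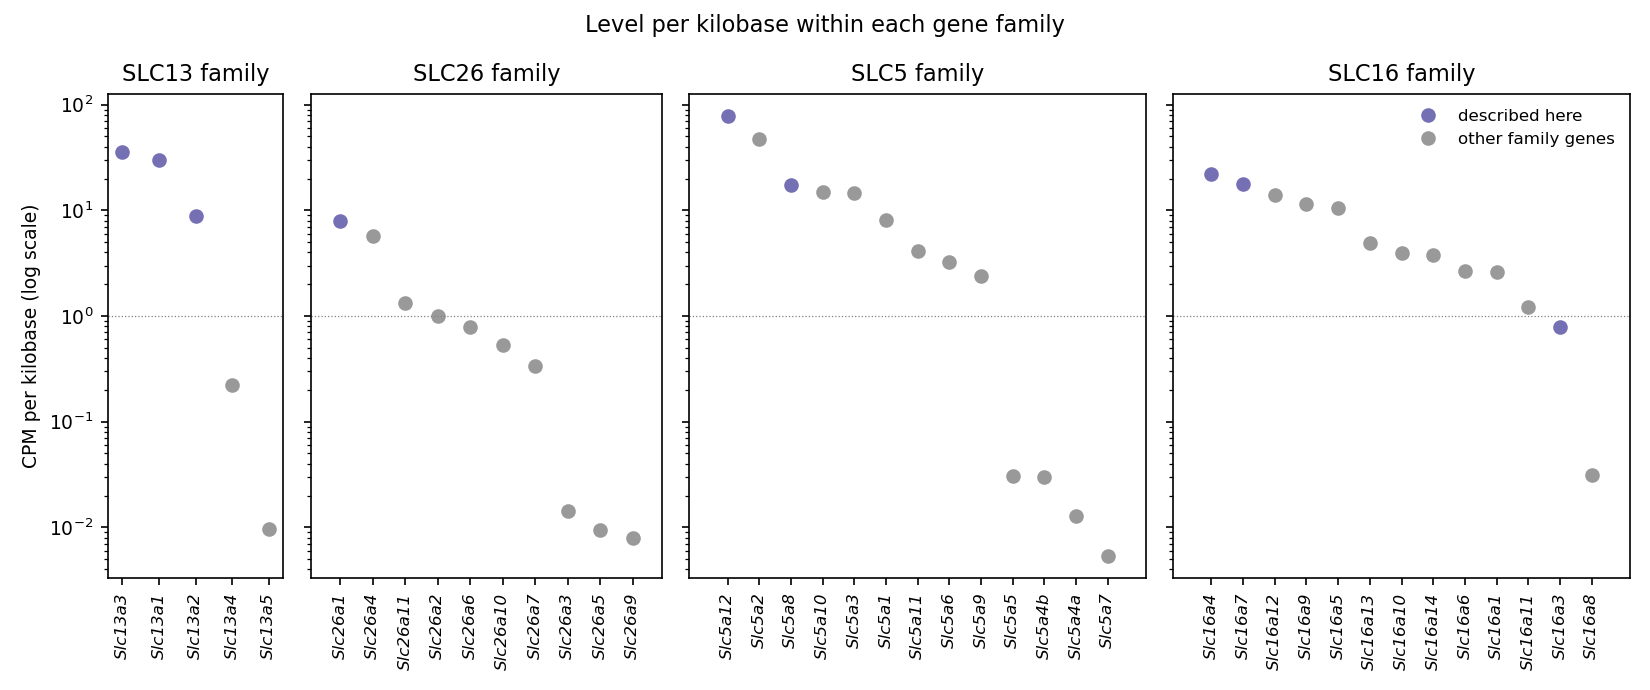
CPM per kilobase (vertical axis, log scale) of the analysed genes of the SLC13, SLC26, SLC5 and SLC16 families, ordered from high to low within each family, with the transporters described here in purple and the rest in grey. With RefSeq transcript lengths, the 3 SLC13 genes, *Slc26a1*, *Slc5a12* and the pair *Slc16a4* and *Slc16a7* lead their families, and *Slc16a3* is 12th of 13. The place of *Slc16a7* depends on the transcript length used.

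The transcript rows of a gene were mostly close to each other. Of the 41 rows, 12 are RefSeq mRNAs and 29 were assembled from the reads. Within 10% of the highest row of their gene lay 33, a count that includes each highest row itself. In 5 of the genes the highest row was less than 1.3 times the lowest. The 3 rows of *Slc16a3* ranged only from 1.784 to 1.788 CPM, the 2 rows of *Slc13a3* had 125.6 and 121.8 CPM and those of *Slc13a2* had 21.5 and 20.4 CPM. The 6 rows of *Slc5a12* ran from 221.2 to 277.8 CPM, its RefSeq forms NM_001177624 and NM_001003915 being at 277.8 and 277.1 CPM. The 7 rows of *Slc26a1* ran from 29.9 CPM, its RefSeq form, to 37.9 CPM.

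The other 4 genes had rows further apart. *Slc16a7* had 5 assembled rows between 108.1 and 108.4 CPM and a RefSeq row (NM_011391) of 43.0 CPM, 2.52-fold lower. This RefSeq transcript is 2419 bases long, whereas the longest transcript annotated for the gene has 10981 bases. *Slc5a8* had 93.2 CPM for its RefSeq form, 85.6 CPM for 1 assembled form and 39.5 CPM for the other. *Slc13a1* had 4 rows from 74.8 to 78.0 CPM and a pair at 39.3 and 36.7 CPM. *Slc16a4* ran from 29.5 to 49.9 CPM over 6 rows. The CPM of all 54721 rows summed to 1007000, so the unit is per transcript row and the rows of a gene add up to more than 1 row holds. The 3 rows of *Slc16a3*, at 1.784 to 1.788 CPM, summed to 5.36 CPM. The 7 rows of *Slc26a1*, at 29.9 to 37.9 CPM, summed to 252.1 CPM. Whether rows of a gene share the same reads was not tested, so such sums are not read here as the level of a gene.

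**Figure D4:**
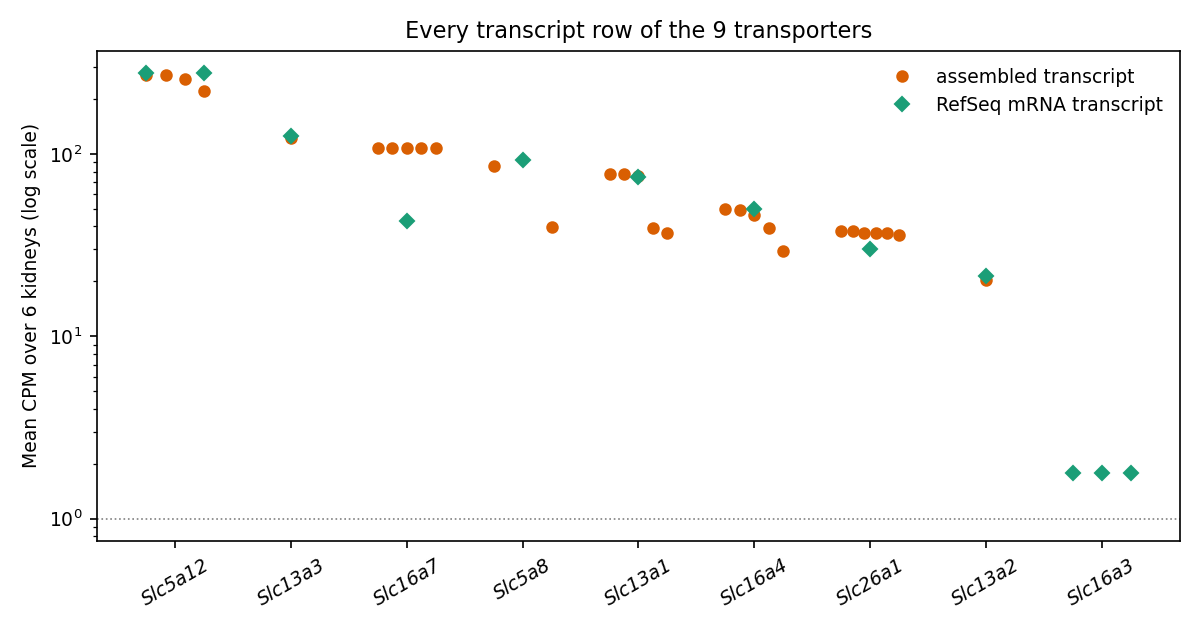
Mean CPM over the 6 kidneys (vertical axis, log scale) of each of the 41 transcript rows of the 9 transporters, with RefSeq mRNAs as green diamonds and transcripts assembled from the reads as orange circles, and a dotted line at 1 CPM. Most rows of a gene lie together, the RefSeq row of *Slc16a7* at 43.0 CPM stands apart from its 5 assembled rows at about 108.4 CPM, and all rows of *Slc16a3* lie just above 1 CPM.

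Genes that work beside the transporters were all above 1 CPM. Of 4 partner genes, *Pdzk1*, the scaffold that holds carriers of the brush border, had the highest level with 160.6 CPM per kilobase, and *Bsg* (basigin, which escorts MCTs to the membrane) had 141.6. *Bsg* was 6.38-fold above *Slc16a4*, the highest of the MCTs, and the other escort *Emb* had 6.93. Of 9 genes of citrate and dicarboxylate use, *Cs* (citrate synthase) was the highest with 38.6 CPM per kilobase and *Slc22a7* the lowest with 2.71. The organic anion transporters *Slc22a6* (20.5) and *Slc22a8* (30.9), which exchange organic anions for the 2-oxoglutarate that *Slc13a3* brings in, were below *Slc13a3*, by 1.74-fold and 1.15-fold.

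Of 9 genes of lactate and pyruvate use, the highest was *Ldhb*, the lactate dehydrogenase subunit of oxidative tissues, with 365.6 CPM per kilobase, 4.63-fold above *Slc5a12*. *Pck1*, of glucose production, had 279.0, *Ldha* had 98.5 and *Ldhd* had the lowest level, 8.95. Of 10 genes of sulfate activation and use, *Sult1d1*, a sulfotransferase, had 116.6 CPM per kilobase and *Papss2*, which makes the sulfate donor, 53.5, and *Slc35b3*, a Golgi carrier of that donor, was the lowest with 2.81. The medians were 84.9 CPM per kilobase for the partners, 83.5 for lactate and pyruvate use, 27.9 for citrate and dicarboxylate use, 17.8 for the 9 transporters and 10.2 for sulfate.

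**Figure D5:**
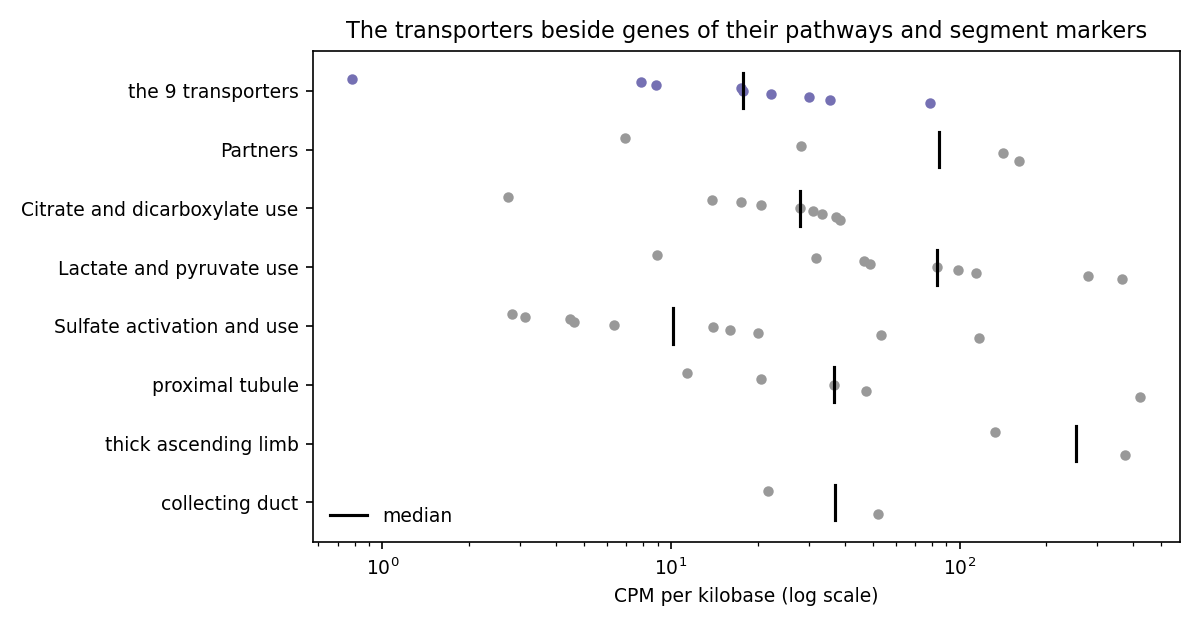
CPM per kilobase (horizontal axis, log scale) of the 9 transporters in purple and of genes of the pathways and markers of tubule segments in grey, 1 point per gene, with the median of each list as a black line. The median of the transporters is 17.8 CPM per kilobase, against 83.5 for genes of lactate and pyruvate use and 36.7 for markers of the proximal tubule.

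The labelled tissue was checked by its markers, and all 5 of the proximal tubule were above 1 CPM. *Slc34a1* (the sodium-phosphate carrier) had 423.1 CPM per kilobase, *Slc5a2* 47.5, *Lrp2* (megalin) 36.7, *Slc22a6* 20.5 and *Cubn* 11.4. *Slc5a12* was above *Lrp2* by 2.15-fold and was 0.187 times as high as *Slc34a1*. Markers of the thick ascending limb (*Umod* 374.4, *Slc12a1* 132.5), of the distal convoluted tubule (*Slc12a3* 43.0, *Pvalb* 3.30), of the collecting duct (*Aqp2* 52.2, *Atp6v1g3* 21.8), of podocytes (*Nphs1* 2.23), of endothelium (*Pecam1* 16.1, *Kdr* 4.15) and of fibroblasts (*Col1a1* 16.3, *Pdgfrb* 8.28) were present too. The macrophage marker *Adgre1*, listed under its older symbol *Emr1*, had 1.39 CPM per kilobase, and *Cd68* had 5.19 CPM with no length. The heart gene *Myh6* was at 0.0280, percentile 16.8 of all genes on this scale. The liver gene *Alb* was at 6.58, percentile 78.95, and thus above *Nphs1*, *Kdr* and *Pvalb*. This marker of another tissue was therefore not low, and the reason was not tested. Which of these cells the transporters' RNA came from was not tested.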

How the data were processed

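RNA of 6 kidneys, 3 SKO and 3 DKO, was sequenced as stranded total RNA in single-end reads of 51 bases. After trimming, the authors aligned them to mm10 with TopHat2 2.0.12, dropping those of mapping quality under 10, and used edgeR. The submitters' processing notes also name bcl2fastq 1.8.4, Cufflinks, featureCounts, Subread 1.4.6 and edgeR 3.2.4. The deposited log2 values are the authors' log2 CPM of each transcript averaged over all 6 kidneys, and their label does not give the kind of averaging. The lowest of them, -5.25 (0.0263 CPM), was shared by 4617 rows. The 4 other columns hold the authors' own comparison of DKO with SKO (log2 fold change, likelihood ratio, p and adjusted p) and were not used, so the planned test between the groups was not made. Each library's depth is unknown.

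Genes were matched by symbol and represented by their highest row. CPM was 2 to the power of the deposited value. For CPM per kilobase the highest RefSeq mRNA row was divided by the length of its transcript in GENCODE M21 (GRCm38, the assembly of mm10), and 3′-UTRs came from the same transcripts. Coding sequences were aligned globally with Biopython 1.88 (match 2, mismatch -1, gap opening -4, extension -1). Percentiles, site searches and coordinates were tested on made-up data with known answers. The named genes are the 9 transporters with every row and, of each list, mainly the highest and lowest; further genes of the families, pathways and segments, *Mir17hg*, *Pkd1*, *Ppara* and *Idua* were named after their values were seen. Of the lists, 3 genes are not reported here and enter no count or median of a list. Members and lists were chosen with earlier results of these data known. Python 3.11.15, numpy 2.4.6, pandas 2.3.3 and matplotlib 3.10.9 were used.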

Additional observations from a re-analysis of the deposited data

How the results depend on the processing

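No paired analysis was possible because the table has no value for a single kidney, and for the same reason no replicate could be left out, no other normalization or test was run, and no error can be set beside a level. All 9 transporters had at least 1 CPM with RefSeq rows alone, and 8 had at least 5 CPM by their highest row. The sum of all rows cannot be lower than the highest row, so it also left all 9 at 1 CPM or more. The number with a match to bases 2 to 8 of miR-17 was 0, also in the longest 3′-UTR, against 3 with the 6-base match and 2 with those 6 bases followed by an A, a form added after seeing the data. With the 6-base match miR-19 went from 0 to 1 and miR-18 from 2 to 3, and with the A form they went to 1 and 0. In the longest 3′-UTR miR-18 went to 3 and miR-92 from 0 to 1. Summing rows must give a higher value for any gene with several rows. The rise ran from 1.95-fold for *Slc13a2*, with 2 rows, to 6.65-fold for *Slc26a1*, with 7, and was larger in genes with more rows. RefSeq rows alone lowered 3 of the 9, by up to 2.52-fold for *Slc16a7*. Dividing by the longest transcript lowered *Slc16a7* most, from 17.8 to 3.92 CPM per kilobase. With its highest row over that length, an alternative chosen after seeing the data, it was 9.88. *Slc5a12* was the highest and *Slc16a3* the lowest of the 9 under each of these scales, but the order between them was not stable. Against the order by CPM, 6 of the 9 changed place with summed rows, an order that depends on how many rows a gene has. *Slc13a3*, with 2 rows, went from place 2 to place 6. With RefSeq rows alone 4 changed place, and against the order per kilobase 4 changed with the longest transcript.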

Other observations

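The *Slc16a3* rows NM_030696 and NM_001038653 both had 1.788 CPM although their transcripts in GENCODE are 2272 and 4335 bases long. The 5 assembled rows of *Slc16a7* had 108.1 to 108.4 CPM against 43.0 CPM for its RefSeq row, and the positions and lengths of assembled transcripts are not given in the table.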
